A study of Mus musculus with 8 samples.

Results

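The 10 trophic ligands followed here, known for supporting motor neurons, were measured in astrocytes sorted from the mouse spinal cord: Gdnf, Nrtn, Bdnf, Ntf3, Cntf, Lif, Vegfa, Vegfb, Ptn and Mdk. The 10 genes were taken by name from a given list, whatever their values, out of 39179 genes counted in each library. All 8 libraries came from Aldh1l1-GFP+ cells, collected by flow sorting after the meninges were taken off and the cord was dissociated with papain. The mice were of a mixed Swiss-Webster strain and 12 to 14 days old. The 4 controls, named control S1, S2, S6 and S7, carried the reporter but no cre, and their labels call them wild-type; whether their Kir4.1 alleles were floxed is not stated. The 4 knockouts, named cKO S3, S4, S5 and S8, carried the reporter, floxed Kir4.1 on each chromosome copy and Aldh1l1-cre, which is active in astrocytes and can be active in other cells that use the Aldh1l1 promoter. Kir4.1 is the astrocyte potassium channel encoded by Kcnj10. Values of single libraries are given in this order, S1, S2, S6, S7 for the controls and S3, S4, S5, S8 for cKO. The questions were which of these ligands spinal astrocytes express, and whether their RNA differed between control and knockout libraries.

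Trophic ligands are proteins, most of them secreted, that bind receptors on neurons or glia and act on survival, growth of processes and synapses. Gdnf and Nrtn belong to the GDNF family, which signals through Gfra co-receptors and Ret. Bdnf and Ntf3 are neurotrophins, with the Trk receptors Ntrk2 and Ntrk3 as their main partners. Cntf and Lif are cytokines that use Lifr and Il6st, with Cntfr as an added subunit for Cntf. Vegfa and Vegfb bind the Flt1 and, for Vegfa, the Kdr receptor, with neuropilins as co-receptors. Ptn (pleiotrophin) and Mdk (midkine) are a pair of heparin-binding growth factors that bind Ptprz1, Alk, Sdc3 and Lrp1. RNA levels do not show how much ligand was made or released.

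The upstream DNA of 3 of these genes is shown because they stand at the ends of the order of levels: Ptn and Vegfa had the most RNA per length of the 10, and Ntf3 had no read in any library. The sequences are from RefSeq (GRCm38.p6), run 5′ to 3′ on the gene's own strand, and stop before any annotated transcript of the gene; capitals mark each CG dinucleotide. They cover chr6:36810221-36810429 for Ptn, chr17:46032378-46032627 for Vegfa and chr6:126166911-126166994 for Ntf3, all on the minus strand.
Ptn: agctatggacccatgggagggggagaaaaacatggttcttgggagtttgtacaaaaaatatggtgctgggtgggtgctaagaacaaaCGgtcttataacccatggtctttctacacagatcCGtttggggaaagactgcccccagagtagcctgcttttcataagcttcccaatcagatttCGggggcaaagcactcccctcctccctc
Vegfa: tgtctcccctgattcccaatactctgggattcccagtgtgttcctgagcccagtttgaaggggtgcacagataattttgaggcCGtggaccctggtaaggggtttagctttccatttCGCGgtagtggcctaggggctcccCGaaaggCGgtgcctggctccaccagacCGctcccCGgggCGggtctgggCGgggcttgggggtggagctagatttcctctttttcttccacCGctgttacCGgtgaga
Ntf3: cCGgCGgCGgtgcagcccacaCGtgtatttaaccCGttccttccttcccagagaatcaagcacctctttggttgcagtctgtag
The printed stretch of Ptn holds 3 CG dinucleotides in 209 bases, that of Vegfa 11 in 250 bases and that of Ntf3 5 in 84 bases. A promoter was listed for 9 of the 10 genes. Over the 250 bases before the outermost RefSeq start, the count of CG was 1 in Cntf, 5 in Ptn, 6 in Lif, 7 in Gdnf, 9 in Bdnf, 11 in Vegfa and in Ntf3, 19 in Nrtn and 26 in Vegfb, against a median of 6 over 27025 genes. The count did not follow the level: Vegfa and Ntf3 had the same number of CG and stood near opposite ends of expression. The letters ACGTG, a form of the core that hypoxia-inducible factors bind, were found on either strand in 4 of the 9 windows (Gdnf, Nrtn, Bdnf and Ntf3) and in 16.5% of all windows. The form GCGTG was not searched, so the other windows may hold a core. The letters GGGCGG of the GC box were found in 4 of the 9 (Nrtn, Ntf3, Vegfa and Vegfb) and in 33.0% of all windows.

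Reads assigned to genes numbered between 13892736 (control S2) and 25065686 (cKO S8) per library, and 17312 to 20470 genes had a read. Kcnj10 gave 1181, 2306, 1856 and 1937 CPM (counts per 1000000 gene reads, with TMM factors applied to the library sizes) in the controls, and 35.6, 27.2, 37.6 and 35.4 CPM in the cKO libraries. Its log2 fold change, always given as cKO over control, was -5.74 ± 0.25 (SE, n = 4 and 4, edgeR quasi-likelihood test, adjusted p = 7.52e-08). The labels do not say which exons were floxed. The 12 astrocyte markers summed to 24899 to 42466 CPM in controls and 30476 to 38209 CPM in cKO, with none of the 12 under 1 CPM in every library. Of these markers, 2 rose in cKO: Aqp4, a water channel, and Aldh1l1, whose promoter drives the reporter and the cre. The 7 counted motor neuron markers summed to at most 6.44 CPM in any library, with 5 of them under 1 CPM everywhere. Markers of oligodendrocyte precursors summed to 529 to 1486 CPM in controls and 606 to 718 CPM in cKO, and those of oligodendrocytes to 1480 to 2950 and 983 to 2413 CPM. Fibroblast markers reached 124 to 648 and 79.1 to 187 CPM, endothelial markers 53.3 to 80.0 and 26.2 to 67.9 CPM, and microglial markers 28.0 to 45.6 and 28.5 to 61.0 CPM. Mural markers gave 119 to 158 and 76.3 to 118 CPM, narrowly apart. Those of Schwann cells gave 75.4 to 154 and 97.0 to 186 CPM. At an unadjusted edgeR p under 0.05, 4 of 7 tested precursor and 3 of 10 oligodendrocyte markers were lower in cKO. So were 2 of 10 neuronal, 2 of 9 endothelial, 2 of 7 fibroblast, 1 of 6 mural and 0 of 8 microglial markers. Of all genes tested, 4.77% were. None of these markers passed an adjusted p of 0.05. The part of these cells in the ligand reads was not tested. In sorted bulk RNA, fewer cells that express a gene and less of its RNA per cell cannot be told apart.

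The 10 ligands fell into 4 with high RNA levels and 6 with low ones, of which Gdnf, Nrtn and Ntf3 were at or near the lower limit of detection. To compare genes, reads were divided by exon length (all GENCODE exons of a gene merged) and given per kilobase per 1000000 gene reads. In controls the mean level was 176 ± 52.4 (SD, n = 4) for Ptn, 72.2 ± 5.54 for Vegfa, 54.7 ± 10.9 for Mdk and 20.4 ± 8.44 for Vegfb. It was 0.318 ± 0.187 for Nrtn, 0.251 ± 0.227 for Bdnf, 0.227 ± 0.212 for Cntf, 0.159 ± 0.232 for Lif, 0.0208 ± 0.0416 for Gdnf and 0 for Ntf3. The step from Vegfb down to Nrtn was 64.0-fold between control means, and every control library had more of Vegfb than of any lower ligand. Among the 21949 genes with a read in the controls, Ptn ranked 76, Vegfa 197, Mdk 252 and Vegfb 931. Ptn was above Vegfa, Vegfa above Mdk and Mdk above Vegfb in all 8 libraries, although the control ranges of Vegfa and Mdk overlapped. The order among Nrtn, Bdnf, Cntf and Lif did not hold from library to library, and their ranges overlapped.

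**Figure D1:**
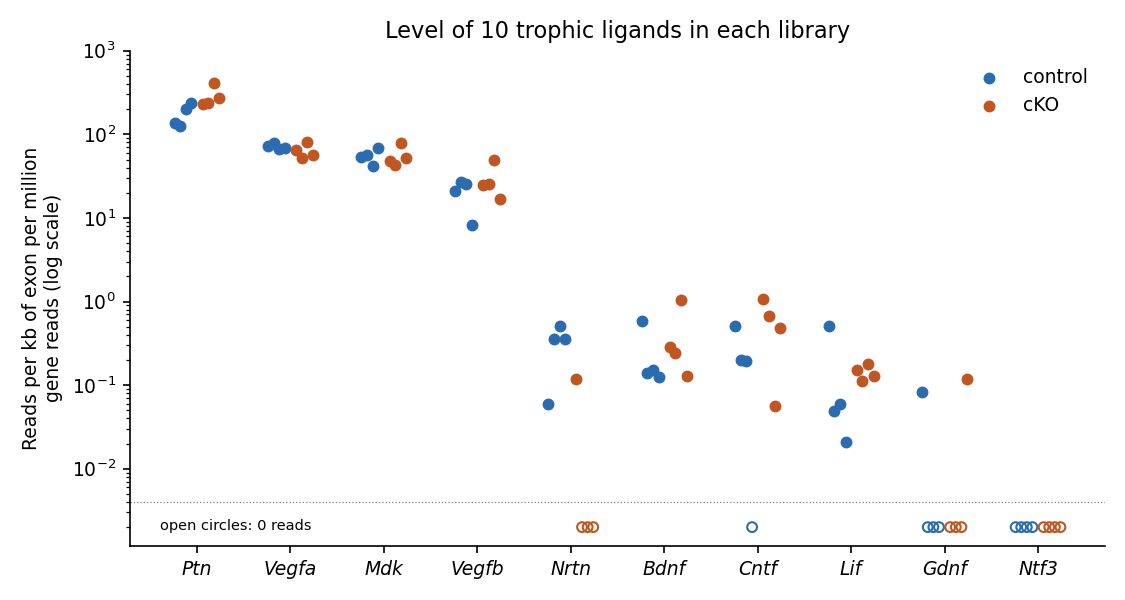
Level of the 10 ligands in each of 8 libraries, in reads per kilobase of exon per 1000000 gene reads on a log axis; blue points are control, orange points cKO, and open circles below the dotted line stand for 0 reads. Ptn, Vegfa, Mdk and Vegfb sit above 8 in every library, and the other ligands sit near or below 1.

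In these astrocytes the summed level of the 10 ligands was made up almost wholly by the pleiotrophin pair and the VEGF pair. Together Ptn, Vegfa, Mdk and Vegfb held between 99.4% and 99.9% of it in each library. Ptn alone held 48.1%, 43.6%, 60.1% and 61.9% in the controls, and 62.4%, 66.4%, 65.9% and 68.3% in the cKO libraries. Controls S1 and S2 were the libraries with the lowest share of Ptn, and all cKO libraries lay above all controls, by a narrow margin over control S7. These shares are ratios of the same counts that are compared gene by gene below, and were looked at after those values were seen, so they carry no test.

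Of the 10 ligands, 6 had enough reads to pass the count filter (Ptn, Mdk, Vegfa, Vegfb, Bdnf and Lif), and 0 of the 6 passed an adjusted p of 0.05 in edgeR's quasi-likelihood test. Over all 14757 genes tested, 0.318% passed (47 genes: 30 or 0.203% higher and 17 or 0.115% lower in cKO), so a count of 0 among 6 is near that background. At an unadjusted p under 0.05, 1 of the 6 (Ptn) passed, against 9.81% of all genes (5.03% higher and 4.77% lower in cKO). By limma-voom the count was also 0 of 6, with 0.325% of all genes called. DESeq2 gave no adjusted p for Lif and called none of the other 5, with 2.26% of 13557 genes called. The median log2 fold change of the 6 was 0.16, with 3 positive and 3 negative, and that of all tested genes was -0.017. None of the 6 had control and cKO libraries that were fully apart, which 6.34% of all genes had.

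Among the pleiotrophin pair, Ptn (ENSMUSG00000029838, chr6:36714929-36810220 on GRCm38) was the most abundant ligand. Its reads came to 492, 438, 740 and 846 CPM in the controls and to 675, 827, 1322 and 998 CPM in the cKO libraries. The lower cKO libraries lay within the control range, while cKO S5 and S8 lay above every control. Among the controls, S6 and S7 had more Ptn than S1 and S2; the summed markers of oligodendrocyte precursors, all 7 of them detected, were 734, 529, 944 and 1486 CPM in S1, S2, S6 and S7, and the astrocyte sums 42466, 37634, 24899 and 25025 CPM. For the knockouts, the precursor sum was 713 CPM in S5, which had the most Ptn, and 718 CPM in S3, which had the least Ptn of its group. It was 610 CPM in S8 and 606 CPM in S4, so the order of these sums was not that of Ptn. The knockouts' astrocyte sums lay between 30476 CPM (S3) and 38209 CPM (S4). The part of either cell type in the Ptn values was not tested. The log2 fold change was 0.60 ± 0.25 (SE, n = 4 and 4), a fold of 1.52, with a 95% interval on the log2 scale of 0.070 to 1.135; the unadjusted p was 0.0296 and the edgeR adjusted p 0.435. In the authors' deposited table, the shrunken log2 fold change of Ptn was 0.53 with an adjusted p of 0.269.

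Mdk (ENSMUSG00000027239, chr2:91929805-91932297), the other member of the pair and better known from embryonic tissue, was spread about evenly over the groups. It gave 73.4, 74.8, 58.1 and 94.0 CPM in the controls and 53.6, 56.9, 98.4 and 74.0 CPM in the cKO libraries. The groups overlapped over most of their range, with the highest value in cKO S5 and the lowest in cKO S3. The log2 fold change was -0.086 ± 0.22 (SE), and its 95% interval as a fold, 0.678 to 1.31, leaves room for a change of about that size in either direction (edgeR adjusted p = 0.935).

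The VEGF pair is known for its action on blood vessels and also on neurons. Vegfa (ENSMUSG00000023951, chr17:46016993-46032369) came to 322, 346, 307 and 307 CPM in the controls and to 237, 223, 328 and 258 CPM in the cKO libraries. The controls were close to each other, with a coefficient of variation of 5.68%, and 3 of the 4 cKO libraries lay below all of them. The remaining library, cKO S5, lay inside the control range, so the groups overlapped. Its log2 fold change of -0.29 ± 0.16 (SE) was a fold of 0.815 with a 95% interval of 0.645 to 1.03 (edgeR adjusted p = 0.566).

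Vegfb (ENSMUSG00000024962, chr19:6982473-6987651), a relative that binds Flt1 but not Kdr, had 35.2, 43.5, 43.1 and 13.8 CPM in the controls. In the cKO libraries it had 33.9, 41.3, 75.2 and 29.1 CPM. Control S7 was low and cKO S5 high, and the remaining libraries of both groups lay together. For Vegfb the log2 fold change was 0.41 ± 0.36 (SE), with an interval of -0.38 to 1.19 and an edgeR adjusted p of 0.767. Library cKO S5 held the highest CPM of Ptn, Mdk and Vegfb of all 8 libraries, and the highest of Vegfa and Bdnf within its group.

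**Figure D2:**
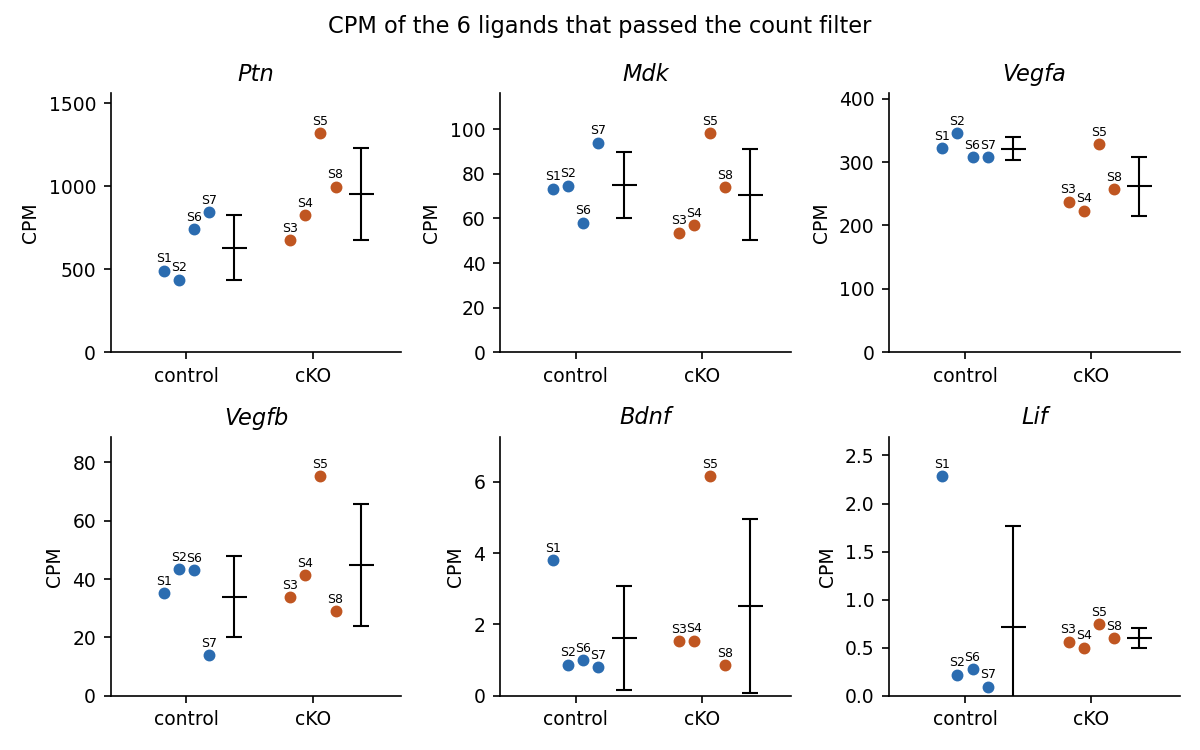
CPM of the 6 ligands that passed the count filter, one panel per gene with its own linear axis from 0; each point is a library, and the bars give mean ± SD of 4 libraries. In every panel the points of the groups overlap, and single libraries (S1 in controls, S5 in cKO) stand high for Bdnf.

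Although no ligand passed on its own, the balance between Ptn and Vegfa within a library was apart between the groups. The ratio of their levels per length was 1.91, 1.58, 3.01 and 3.44 in the controls and 3.55, 4.62, 5.03 and 4.83 in the cKO libraries. A ratio within a library does not depend on the library size factor. Of the 15 pairs that the 6 tested ligands form, this was the 1 pair whose groups did not overlap, and it was singled out after its values were seen. Ptn was also higher in cKO, without overlap, relative to 10.3% of the 13796 genes that had reads in every library, so the ratio to Vegfa shares its pattern with many other genes. The Ptn to Mdk ratio ran from 2.26 to 4.92 in controls and from 4.85 to 5.60 in cKO, and overlapped through control S6. The Vegfa to Vegfb ratio overlapped as well, with 2.67 to 8.35 in controls and 1.63 to 3.32 in cKO.

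**Figure D3:**
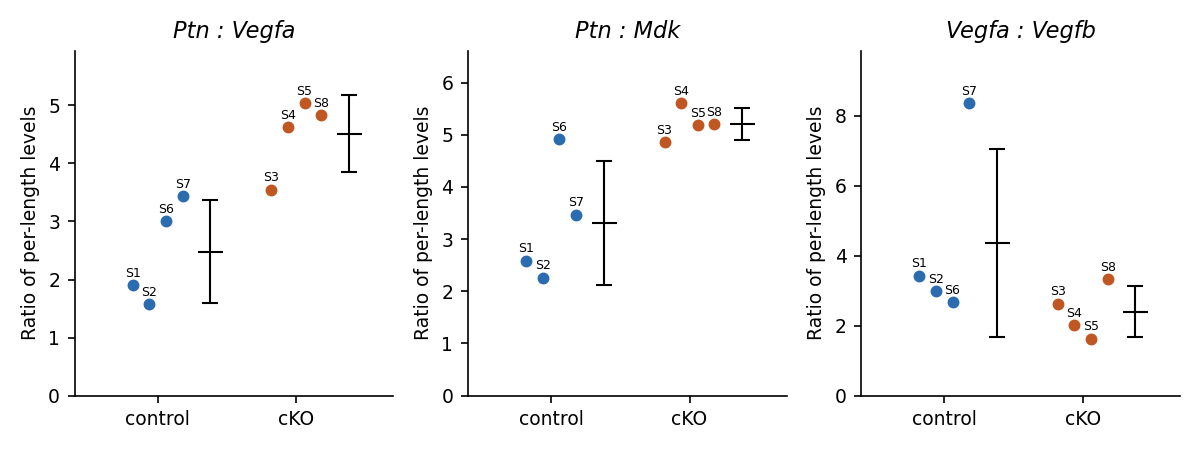
Ratios of ligand levels per length within each library, for Ptn to Vegfa, Ptn to Mdk and Vegfa to Vegfb, on linear axes from 0; points are libraries and bars are mean ± SD of 4 libraries. For Ptn to Vegfa all cKO points (3.55 to 5.03) lie above all control points (1.58 to 3.44), while the other panels show overlap.

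The neurotrophins were scarce. Bdnf (ENSMUSG00000048482, chr2:109674700-109727007), a survival and synapse factor made mostly by neurons, had 60, 12, 18 and 17 reads in the controls and 30, 34, 108 and 20 reads in the cKO libraries. As CPM these were 3.80, 0.873, 0.989 and 0.805 in controls and 1.53, 1.54, 6.16 and 0.856 in cKO, so that 1 library in each group, control S1 and cKO S5, stood well above the rest. For Bdnf the log2 fold change was 0.64 ± 0.80 (SE), with an interval from -1.09 to 2.36 (edgeR adjusted p = 0.847). It was -0.29 without cKO S5. An antisense gene, Gm45346, overlaps part of the Bdnf exons, and since the strand setting of the counting is not given in the sources used here, reads of that transcript could have been counted for Bdnf. Summed neuronal marker levels were 70.0, 63.4, 80.1 and 91.4 CPM in the controls and 40.3, 45.6, 77.2 and 40.0 CPM in the cKO libraries. Within cKO they were highest in S5, the library with the most Bdnf. Within controls they were highest in S7, the library with the least Bdnf, and not in S1. Their part in the Bdnf reads was not tested.

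Ntf3 (ENSMUSG00000049107, chr6:126101412-126166910), the neurotrophin known from muscle spindles and proprioceptive neurons, had 0 reads in each of the 8 libraries. A count of 0 allows up to 0.0198 CPM over all 8 libraries (3 counts of the summed library size), 0.0436 CPM over the controls and 0.0363 CPM over the cKO libraries; these limits cover counting error only. This is an upper limit on its RNA in these preparations, not a proof of absence.

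The GDNF family ligands were close to the same limit. Gdnf (ENSMUSG00000022144, chr15:7810846-7837575), a potent survival factor for motor neurons, had 5 reads in control S1, 11 reads in cKO S8 and none in the other 6 libraries. Nrtn (ENSMUSG00000039481, chr17:56751325-56757530) had 1, 5, 10 and 8 reads in the controls and 2, 0, 0 and 0 reads in the cKO libraries. In CPM this was 0.0634, 0.364, 0.549 and 0.379 in controls against 0.102 in cKO S3, so that control S1 lay below the 1 cKO library with reads and the groups overlapped. Neither gene passed the filter. When every gene with at least 1 count was kept, the log2 fold change of Nrtn was -3.45 with an edgeR adjusted p of 0.507, and that of Gdnf was 0.58 with an adjusted p of 0.946.

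The gp130 cytokines, which share the receptor subunit Il6st, were also scarce. Lif (ENSMUSG00000034394, chr11:4257557-4272514), a cytokine that rises in injured nervous tissue, had 36, 3, 5 and 2 reads in the controls and 11, 11, 13 and 14 reads in the cKO libraries. Control S1 (2.28 CPM) was above every cKO library (0.499 to 0.741 CPM), and the other 3 controls (0.0947 to 0.275 CPM) were below every one. The log2 fold change was -0.25 ± 0.97 (SE; edgeR adjusted p = 0.960), and without control S1 it was 1.59 with an edgeR adjusted p of 0.647. Control S1 thus set its direction in the edgeR fit of the counts, and limma-voom on all 8 libraries gave 0.78. The deposited FPKM values were spread otherwise, with 0.0777 to 0.884 in controls (mean 0.619) and 0.170 to 0.231 in cKO. On FPKM with a pseudocount of 1 the log2 fold change was -0.40. The cause of this disagreement between counts and FPKM was not tested.

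Cntf (ENSMUSG00000079415, chr19:12763660-12765632), a cytokine that glia hold without a classical secretion signal, had 9, 3, 4 and 0 reads in the controls and 19, 16, 1 and 13 reads in the cKO libraries. In cKO, 3 libraries were close to or above the highest control and cKO S5 was near 0, so the groups overlapped. Of its 1073 exon bases, 847 (78.9%) are shared with Zfp91, a neighbouring gene on the same strand at 80.5 CPM in controls and 91.2 CPM in cKO. Reads in shared bases may have been left unassigned by the authors' counting, whose overlap setting is not given in the sources used here. Counted over the 226 bases not shared, the mean level of Cntf would be 1.08 in controls and 2.69 in cKO instead of 0.227 and 0.567, which would place it next after Vegfb in the order but still far below it (20.4 and 29.2); this length was chosen after the overlap was seen. In the authors' deposited FPKM values Cntf was also next after Vegfb, with group means of 2.63 in controls and 3.03 in cKO against 47.5 and 60.6 for Vegfb.

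The receptors of these ligands were far more abundant than the scarce ligands. Of 22 listed receptor genes, all counted, 17 passed the filter and 0 passed the edgeR test, with a median log2 fold change of 0.023. Levels per length in controls were 130 for Cntfr, 92.4 for Ptprz1, 74.5 for Lrp1, 60.5 for Ntrk2, 48.2 for Sdc3, 29.8 for Lifr and 19.6 for Il6st. Those of the VEGF receptors Flt1 and Kdr, which mark endothelial cells, were low, with 1.41 for Flt1, and that of Ret was 0.217. So the receptor chains for Cntf and the neurotrophin receptor Ntrk2 had high RNA in the same libraries that held few reads of Cntf and Bdnf.

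Ntrk2, the Bdnf receptor, whose truncated form is the main one in astrocytes, was the 1 receptor gene whose groups were apart. It had 1439.5, 1290, 1076 and 1032 CPM in the controls and 860, 829, 866 and 855 CPM in the cKO libraries. The cKO libraries were close together and all below the lowest control, a pattern (lower without overlap) held by 2.94% of all genes. The log2 fold change was -0.50 ± 0.15 (SE; edgeR adjusted p = 0.250), and DESeq2 alone of the methods run put it past the threshold, with an adjusted p of 0.0477. In the authors' deposited DESeq2 comparison, Ntrk2 was also past it, with an adjusted p of 0.0344. The counts are per gene and do not separate the full-length and truncated forms. Ptprz1, the phosphatase receptor of Ptn and Mdk, and Lrp1, an endocytic receptor that both bind, had log2 fold changes of 0.31 ± 0.16 and 0.29 ± 0.15 (SE), with edgeR adjusted p of 0.562 and 0.552 and groups that overlapped.

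**Figure D4:**
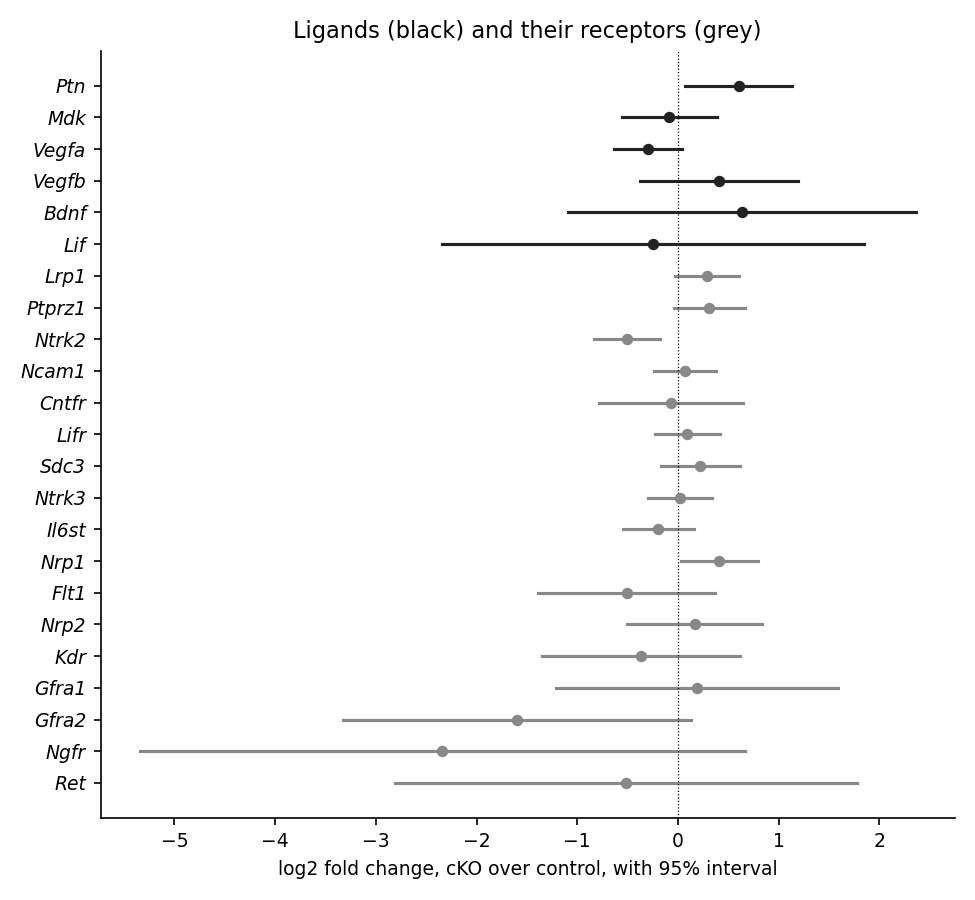
Log2 fold change (cKO over control, x axis) with its 95% interval from edgeR for the 6 tested ligands (black) and the 17 tested receptor genes (grey). The intervals of Ptn and Nrp1 (above 0) and of Ntrk2 (below 0) leave out 0 before adjustment for multiple tests, and among the ligands those of Bdnf and Lif span more than 3 log2 units.

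Other ligands of the same families were also scarce. Of 13 counted genes, 4 passed the filter and 0 passed the test. Pgf, Vegfc and Il11, the 3 most abundant, had control means of 4.36, 1.84 and 1.32 CPM, with log2 fold changes of -0.71, 0.25 and -0.59 and edgeR adjusted p of 0.678, 0.949 and 0.828.

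Among 20 other secreted trophic factors, 19 were tested and 1 rose, Angpt1, which encodes angiopoietin-1, a ligand of the Tek receptor on endothelial cells. It had 5.58, 6.19, 8.68 and 5.64 CPM in the controls and 13.4, 21.4, 17.6 and 27.2 CPM in the cKO libraries. All cKO libraries were above all controls, and the log2 fold change was 1.61 ± 0.31 (SE; edgeR adjusted p = 0.0488). The call was lost when any 1 library other than cKO S3 was left out (adjusted p from 0.0705 without control S6 to 0.202 without cKO S4), by limma-voom (0.0755), with Xist as a covariate (0.0559) and on FPKM (0.174 to 0.416), with the direction kept; the antisense gene Gm17473 overlaps part of its exons. In the authors' deposited DESeq2 comparison, Angpt1 had an adjusted p of 2.27e-05. The most abundant factors of this list were Psap (prosaposin), Fgf1 and Grn (progranulin), with log2 fold changes of 0.13, 0.16 and 0.44 and edgeR adjusted p of 0.834, 0.877 and 0.558. Chosen after their values were seen, Gdf15 and Tgfb2 also had groups apart, with log2 fold changes of 3.55 and -0.69 (edgeR adjusted p of 0.135 and 0.310). Hgf, also named after its values were seen, had 0.142 to 1.52 CPM in controls and 0 to 0.0907 CPM in cKO. It did not pass the count filter, and it shares exon bases with Gm43489, a gene on its own strand. Of all genes tested, 3.39% were higher and 2.94% lower in cKO without overlap.

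Genes for ligand processing, sorting and binding to the matrix gave no call. Of 16 counted genes for processing and sorting, 13 were tested and 0 passed; the most abundant, Sorl1, Sorcs2 and Sort1, encode sorting receptors and had log2 fold changes of 0.42, 0.078 and 0.30 (edgeR adjusted p of 0.397, 0.911 and 0.763). Of 13 genes for heparan sulphate and chondroitin carriers, on which Ptn, Mdk and Vegfa bind, 11 were tested and 0 passed. Sdc4, Sdc2 and Gpc5 led this list, with log2 fold changes of -0.18, 0.40 and 0.055 (edgeR adjusted p of 0.845, 0.650 and 0.948).

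Vegfa is a known target of hypoxia-inducible factors, so other genes known to respond to them were read beside it. Of 14 listed hypoxia-inducible genes, 12 were tested and 1 rose, Egln3, a prolyl hydroxylase that marks hypoxia-inducible factors for degradation. It had 4.18, 4.22, 7.85 and 3.13 CPM in the controls and 14.7, 24.0, 37.6 and 22.9 CPM in the cKO libraries. All cKO libraries were above all controls, and the log2 fold change was 2.35 ± 0.37 (SE; edgeR adjusted p = 0.0183). The call was lost without control S1 (0.0729), control S2 (0.0655), cKO S4 (0.0751) or cKO S5 (0.0637), and on FPKM (0.0982 to 0.211), and the direction was kept. The authors' deposited DESeq2 comparison gave Egln3 an adjusted p of 1.56e-07.

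Slc2a1, the glucose transporter GLUT1, and Ldha, a lactate dehydrogenase subunit, had groups apart without passing the edgeR test. Ldha was named after its values were seen. Slc2a1 had 405, 342, 197 and 231 CPM in the controls and 452, 703, 783 and 435 CPM in the cKO libraries, with a log2 fold change of 1.01 ± 0.26 (SE; edgeR adjusted p = 0.156). Ldha had 81.3, 62.6, 64.8 and 73.9 CPM in the controls and 94.6, 133, 111 and 126 CPM in the cKO libraries, with a log2 fold change of 0.72 ± 0.17 (SE; edgeR adjusted p = 0.110). DESeq2 put both past the threshold (adjusted p of 0.00582 and 0.00906), as edgeR with library totals did for Ldha (0.0470). So did the authors' deposited DESeq2 comparison, with an adjusted p of 0.0176 for Slc2a1 and 0.00469 for Ldha. All cKO values of both genes lay above all control values, a pattern held by 3.39% of all genes, whereas 3 of 4 cKO values of Vegfa lay below all its controls. Hif1a and Epas1, which encode factor subunits, had log2 fold changes of 0.33 and -0.16 (edgeR adjusted p of 0.483 and 0.750). The list's median log2 fold change was 0.33, with 8 genes positive and 4 negative. Epas1 and, named after its values were seen, Egln1 had all cKO libraries below all controls, with log2 fold changes of -0.16 and -0.13. No difference in response between Vegfa and these genes was tested.

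**Figure D5:**
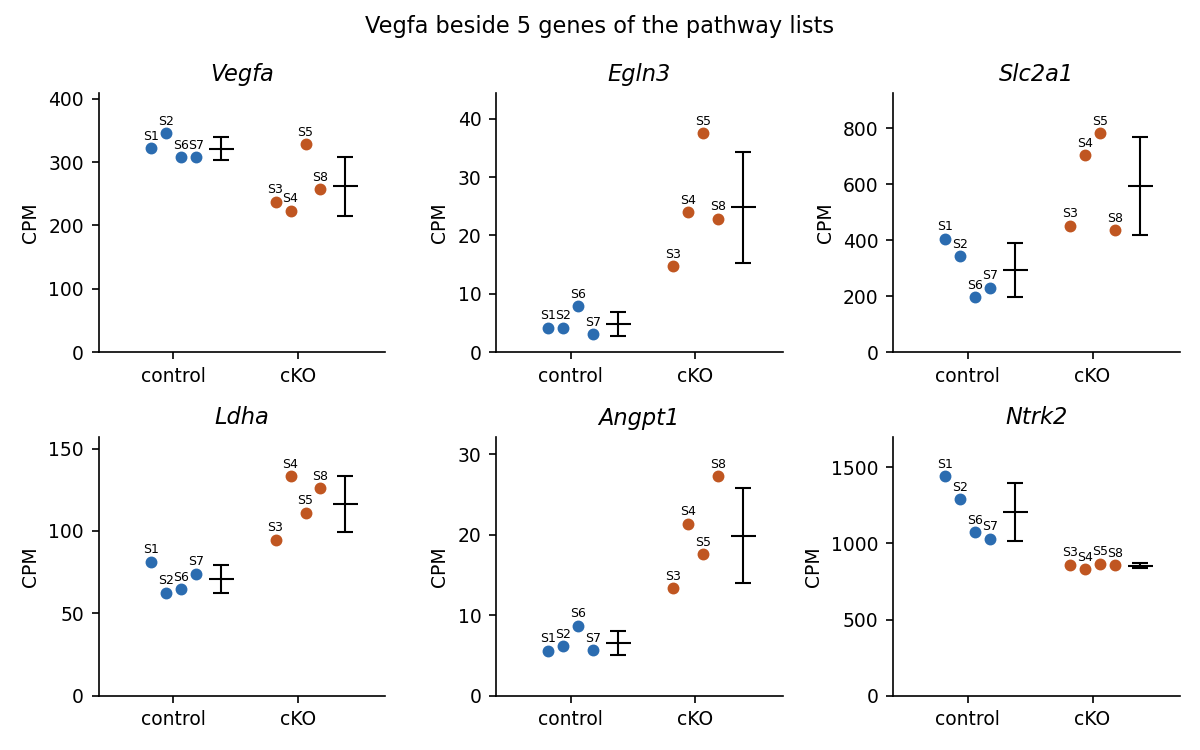
CPM per library of Vegfa and of 5 listed genes (Egln3, Slc2a1, Ldha, Angpt1 and Ntrk2) on linear axes from 0; points are libraries and bars mean ± SD of 4 libraries. The cKO points lie above all control points for Egln3, Slc2a1, Ldha and Angpt1 and below them for Ntrk2, while Vegfa overlaps through cKO S5 (328 CPM).

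All 10 listed targets of CNTF and LIF signalling passed the count filter, and 0 of 10 passed the edgeR test. Their median log2 fold change was 0.37, with 8 positive and 2 negative. The negative ones, named after their values were seen, were Cebpd with -1.62 (edgeR adjusted p = 0.400) and Junb with -0.53 (0.879). The groups of both overlapped. Gfap, the intermediate filament of reactive astrocytes, had a log2 fold change of 0.16 (edgeR adjusted p = 0.877), Stat3, the transcription factor of the pathway, 0.29 (0.753), and Vim, another filament protein, 1.06 (0.250). Socs3, the feedback inhibitor of this pathway, was singled out after its values were seen, with 0.494 to 1.77 CPM in controls and 3.68 to 5.31 CPM in cKO. Its groups were apart, and its log2 fold change was 1.75 ± 0.57 (SE; edgeR adjusted p = 0.292). The authors' deposited DESeq2 comparison put Socs3 past the threshold, with an adjusted p of 0.0169. None of the 19 alternatives run here did so. Overlaps were given above for Bdnf, Cntf, Angpt1 and Hgf. Besides these, Slc2a1, Hif1a, Sorl1, Sort1, Sdc3, Gpc5, Grn, Stat3, Cebpd, Junb and Tgfb2 share exon bases with a gene on the opposite strand. Hif1a shares some with a further gene on its own strand. Part of the reads of these genes could belong to the neighbour.

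The genes whose log2 CPM followed the 3 most abundant ligands most closely over the 8 libraries were found among 7757 genes with a mean of at least 10 CPM. Ptn was followed by Samd4b (Pearson r 0.978, Spearman rho 0.881) and Tpt1 (0.974, 0.952). Vegfa was followed by Abcd4 (0.959, 0.952) and Ndufa3 (0.935, 0.881), and Mdk by Mdh2 (0.942, 0.905) and Gtf2a2 (0.941, 0.881). The 8 points of each pair share library, depth and size factor and span both groups, and the highest of 7757 correlations over 8 points is high by selection, so these values describe likeness only.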

How the data were processed

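The authors deposited, per the file headers, a table of raw read counts per gene for each library; per the submitters' processing notes, the tools used on the series were FastQC 0.11.4, TopHat2 2.0.11, Bowtie2 2.2.3, HTSeq 0.6.1p1, DESeq2 1.14.1, Cuffnorm and Cufflinks 2.2.1, with GRCm38 as the build. The annotation release, strand and overlap settings of the counting are not given in the sources used here. The lines of each count table that name no gene held 56.4% to 61.7% of reads and were left out; rRNA-like and mitochondrial transcripts took 35.6% to 48.4% of gene reads. The authors also deposited FPKM values. Their column names followed the count library of the same name for 3 of 8 columns (10829 genes compared), while all 8 matched their own group, so FPKM was used by group only. The authors' deposited comparison holds group means (a signal of scaled counts), shrunken log2 fold changes, scores (a standard error and a Wald statistic) and p-values with adjusted p-values. Each group held 4 biological replicates, per the series' design text; replicate numbers are not shared between groups.

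Counts were tested with edgeR 4.0.16 (R 4.3.3; quasi-likelihood, TMM, filterByExpr, no covariate), with Benjamini-Hochberg adjustment over 14757 genes and a threshold of 0.05. The script was tested on simulated data, with changed genes drawn from those above a minimum CPM. It recovered 37% of 100 genes with a true log2 fold change of 1 in size, and 80% of 100 with 2. A gene that did not pass may therefore still differ by such an amount. Alternatives were DESeq2 1.42.0, limma 3.58.1 (voom, and log2(FPKM + 1) or + 0.1), other size factors and filters, Xist as a covariate (no label gives sex) and each library left out. Levels between genes are reads per kilobase of merged exons (GENCODE mouse release 21) per 1000000 gene reads. Named genes were all 10 ligands, Kcnj10, every listed pathway gene past the threshold, the 3 most abundant genes of each list and the 2 genes most like each of the 3 most abundant ligands; other names carry the remark that they were chosen after values were seen. Receptors and markers beside these illustrate a list. The ligands and lists were chosen with earlier results of these data known.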

Additional observations from a re-analysis of the deposited data

Results flagged for a closer look

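In 6 of 20 groups of 4 libraries (10 ligands in each group), 1 library stood apart from the other 3 by Dixon's criterion; chance alone gives about 1 in 20, and sparse counts with several values at 0 meet the criterion readily. Gdnf had 0.317 CPM (5 reads) in control S1 and 0.471 CPM (11 reads) in cKO S8, against 0 in the other libraries of each group. Nrtn had 0.102 CPM (2 reads) in cKO S3 against 0 in the other cKO libraries. Bdnf had 3.80 CPM in control S1, where the nearest control had 0.989 CPM, and 6.16 CPM in cKO S5, where the nearest had 1.54 CPM. Lif had 2.28 CPM in control S1, where the nearest control had 0.275 CPM. Control S1 thus stood high for Gdnf, Bdnf and Lif.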

How the results depend on the processing

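None of the 6 tested ligands passed the threshold in any of 119 alternative results (adjusted p from 0.216 to 0.999), and 112 of them kept the direction. The 7 that turned it were Bdnf without cKO S5 (-0.29; 1.49 without control S1), Lif by limma-voom (0.78) and without control S1 (1.59; -0.61 without control S7), and Mdk with library totals (0.014), without control S7 (0.048), without cKO S3 (0.034) and without cKO S4 (0.0048; -0.28 without cKO S5). Library totals moved the median log2 fold change of all genes from -0.017 to 0.091, and relative to that median Mdk stayed lower. Among listed genes that turned, leaving out 1 library gave Vegfc -0.11 (without control S7) to 0.98, Fgf1 -0.055 (without control S7) to 0.31, Sdc4 -0.33 to 0.035 (without control S1) and Gpc5 -0.029 (without control S6 or S7) to 0.15. The 47 changed genes became 306 by DESeq2, 87 with genes of at least 1 count in any library, 84 with at least 10 counts in every library, 28 with Xist as a covariate, and 7, 8 and 7 on FPKM with a pseudocount of 1, of 0.1, and of 1 without a filter; leaving out 1 library gave 4 (without cKO S4) to 45, with 14 without control S2, 16 without control S6, 24 without cKO S5, 28 without cKO S8 and 30 without control S1. Of the listed pathway genes, 2 passed; DESeq2 gave 6 (Angpt1, Egln3, Slc2a1, Ldha, Gdf15 and Ntrk2), limma-voom 1, Xist as a covariate 1, FPKM 0 in each of its 3 forms, and leaving out 1 library 0 to 2. The cause of these shifts was not tested. Kcnj10 passed in all 20 alternatives. The number of ligands at a level of at least 1 was 4, or 5 with FPKM or with Cntf over its unshared bases. No paired analysis was possible because the groups share no replicate number. Depth limits Gdnf, Nrtn, Cntf and Ntf3, for which differences were not detectable at these counts.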
